A study of Mus musculus with 6 samples.

Results

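A set of 10 genes widely used to read out the activity of YAP and TAZ was followed in RNA from mouse sciatic nerve: Ctgf, Cyr61, Ankrd1, Axl, Igfbp3, Ajuba, Arhgef17, Tgfb2, Ptpn14 and Myof. They were taken by gene symbol from the 24421 genes counted, and all 10 were present and passed the filter on low counts that left 14789 genes for testing. Bulk RNA was sequenced from 3 libraries labelled YAP/TAZ-DBL-cKO (called cKO here) and 3 libraries labelled YAP/TAZ-WT (WT), whose animals the design text calls wild-type controls. The labels do not spell out DBL or cKO, and the sources used here give neither the driver of the deletion, the deleted exons, nor the age of the mice, and do not say whether nerves were pooled. A whole nerve holds Schwann cells, fibroblasts, perineurial, vascular and immune cells, and in such RNA fewer cells of a type and less RNA per cell cannot be told apart.

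YAP and TAZ are co-activators held in the cytoplasm and marked for breakdown when the Hippo kinases phosphorylate them. In the nucleus they have no DNA-binding domain of their own and reach promoters and enhancers through TEAD transcription factors. Ctgf and Cyr61 (Ccn2 and Ccn1 in current nomenclature) encode secreted matricellular proteins and Ankrd1 a nuclear and sarcomeric ankyrin repeat protein, and these genes are the most common read-outs. Several other targets, among them Ajuba, Ptpn14, Lats2 and Amotl2, encode proteins that act back on the pathway. In Schwann cells, YAP and TAZ are known for roles in proliferation and in the switch to myelination.

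YAP and TAZ reach DNA through TEAD factors, so the promoters of 4 members are shown. Cyr61 and Ankrd1 were taken as standard read-outs, and Ajuba and Igfbp3 as called members that moved in opposite directions. Each sequence runs from 250 bases before to 50 bases after the RefSeq start of the gene (GRCm38.p6, the assembly of mm10), 5′ to 3′ on the gene's strand, with capitals marking the TEAD core motif GGAATG or its reverse complement CATTCC. The windows lie at chr3:145649936-145650235, chr19:36119795-36120094, chr14:54577612-54577911 and chr11:7213874-7214173, all on the minus strand.
Cyr61: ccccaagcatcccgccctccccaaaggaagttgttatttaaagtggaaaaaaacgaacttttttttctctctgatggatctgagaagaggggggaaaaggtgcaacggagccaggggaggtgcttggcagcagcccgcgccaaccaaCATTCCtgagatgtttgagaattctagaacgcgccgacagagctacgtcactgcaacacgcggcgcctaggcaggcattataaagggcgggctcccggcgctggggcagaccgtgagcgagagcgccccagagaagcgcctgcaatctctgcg
Ankrd1: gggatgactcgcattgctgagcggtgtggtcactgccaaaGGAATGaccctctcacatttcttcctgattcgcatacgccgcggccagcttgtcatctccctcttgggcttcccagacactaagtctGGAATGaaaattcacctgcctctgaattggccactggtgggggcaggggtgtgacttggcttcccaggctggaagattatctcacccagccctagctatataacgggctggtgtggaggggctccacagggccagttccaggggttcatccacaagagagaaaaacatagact
Ajuba: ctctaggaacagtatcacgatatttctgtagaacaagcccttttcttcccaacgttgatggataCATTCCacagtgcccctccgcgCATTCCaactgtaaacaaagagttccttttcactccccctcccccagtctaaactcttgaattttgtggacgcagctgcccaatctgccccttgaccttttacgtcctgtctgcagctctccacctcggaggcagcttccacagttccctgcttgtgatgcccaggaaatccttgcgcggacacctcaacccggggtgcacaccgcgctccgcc
Igfbp3: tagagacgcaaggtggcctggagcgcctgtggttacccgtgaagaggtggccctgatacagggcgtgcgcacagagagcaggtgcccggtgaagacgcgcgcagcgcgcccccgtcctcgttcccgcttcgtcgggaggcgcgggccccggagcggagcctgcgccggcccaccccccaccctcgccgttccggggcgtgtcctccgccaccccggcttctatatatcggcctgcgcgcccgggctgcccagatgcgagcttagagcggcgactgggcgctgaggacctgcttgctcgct
The Cyr61 window holds 1 match, starting 103 bases upstream of the start. Ankrd1 has 2 matches, starting 210 and 123 bases upstream, and Ajuba has 2, starting 186 and 164 bases upstream. The Ankrd1 and Ajuba distances hold for the RefSeq starts only. In the GENCODE M21 annotation Ajuba starts at 54577558, and the whole window lies upstream of it. Ankrd1 starts there at 36120099, so its whole window, with both matches, lies inside the gene. Igfbp3 has 0. Promoter entries were matched for 8 members, and 5 of these windows held the motif on either strand, Axl and Ptpn14 being the others. Ctgf and Arhgef17 had no entry. Among all 32851 promoters of 300 bases, 14.7% held it. The AP-1 motif, TGACTCA or TGAGTCA on either strand, was in 0 of the 8 windows and in 5.2% of all promoters. A match is a stretch of letters and not a measured binding site, and its relation to the direction of a gene was not tested.

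Gene counts per library came to 24651262 to 32003497 in cKO and 41270894 to 47044158 in WT, so every WT library was deeper than every cKO library. Values below are CPM, the counts of a gene relative to the size of its library, scaled by TMM factors, and "called" means a Benjamini-Hochberg adjusted p under 0.05 in edgeR's quasi-likelihood test of all genes. The transcripts of the targeted genes did not check the labels: Yap1 had 121.9 ± 1.69 CPM in WT and 106.5 ± 3.41 CPM in cKO (SD, n = 3), which was not called (edgeR adjusted p = 0.145), and Wwtr1, which encodes TAZ, was called higher (271.1 ± 15.6 against 358.7 ± 18.7 CPM, edgeR adjusted p = 0.0208), a call lost without cKO 3, WT 1 or WT 2. Since the deleted part is not stated, a whole-gene count does not check the deletion, and directions below are between libraries as labelled. All libraries held both Xist (133.9 to 257.9 CPM) and Y-linked Ddx3y (8.92 to 47.9 CPM), so transcripts of both sexes were in each. The Schwann cell lineage factor Sox10 was present in all libraries, at 506.6 ± 89.5 CPM in WT.

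Of the 10 targets, 1 was called higher and 2 lower in cKO. Igfbp3 rose, Ajuba and Arhgef17 fell, and the other 7 did not pass. Over all genes, 10.9% were called, 4.77% higher and 6.17% lower; 24.6% had an unadjusted edgeR p under 0.05, and DESeq2 called 15.2%. Lower genes made up 56.4% of all calls with TMM factors and 32.3% with total counts only, a setting that shifts the all-gene median (log2) by 0.124. The median log2 fold change of the 10 was 0.27, beside 0.02 for all tested genes, with 7 members above 0 and 3 below. Without WT 2 it was 0.18, and with the muscle covariate 0.05. The log2 fold changes (cKO over WT) ran from -0.55 for Arhgef17 to 0.77 for Ankrd1. The groups did not overlap for 5 members: Igfbp3, Axl and Cyr61 with cKO above WT, and Ajuba and Arhgef17 with cKO below. Over all genes 31.1% did not overlap, 15.3% with cKO higher and 15.8% with cKO lower. Cyr61 left that set with DESeq2's size factors, and Tgfb2 joined it with total counts only. After thinning every library to the depth of the shallowest, a check added after the data were seen, the count of called members was again 1 higher and 2 lower.

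**Figure D1:**
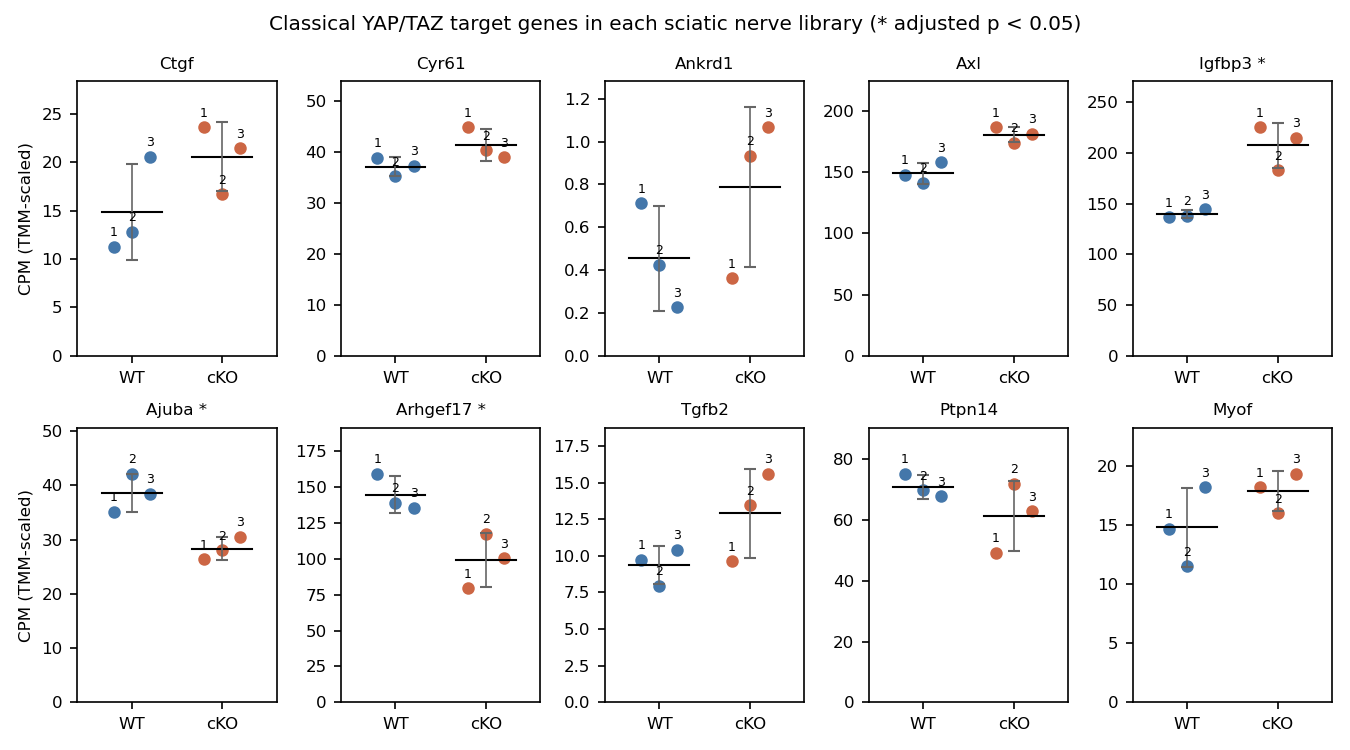
CPM (TMM-scaled, linear axis from 0) of the 10 targets in each library, numbered 1 to 3 by replicate; black lines are group means and grey bars the SD over 3 libraries. Igfbp3, Ajuba and Arhgef17 (starred) were called; for Ctgf, Ankrd1, Tgfb2, Ptpn14 and Myof the groups overlap.

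Neither of the transcripts of secreted CCN proteins, Ctgf and Cyr61, was called. Ctgf (chromosome 10, 24595442 to 24598683, plus strand; mm10) stood at 11.3, 12.8 and 20.6 CPM in WT 1, 2 and 3 and at 23.6, 16.7 and 21.4 CPM in cKO 1, 2 and 3. WT 3 lay within the cKO range, while WT 1 and WT 2 lay below all of them. The log2 fold change was 0.47 ± 0.23 (SE), with a 95% interval from -0.05 to 0.99 (edgeR adjusted p = 0.253), and without WT 3 it was 0.75 and called higher (edgeR adjusted p = 0.0222). An antisense transcript, Gm15270 in GENCODE M21, covers 23.2% of the exon bases of Ctgf, and without a stated strand setting reads of the pair cannot be told apart. Cyr61 (chromosome 3, 145646976 to 145649981, minus strand) varied less from library to library.

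Cyr61 had 38.8, 35.2 and 37.2 CPM in WT and 44.8, 40.2 and 38.9 CPM in cKO. Cyr61 in the lowest cKO library, cKO 3, was almost level with that in the highest WT library, WT 1. The log2 fold change was 0.16 ± 0.09 with a 95% interval from -0.06 to 0.37 (edgeR adjusted p = 0.357). For both genes the interval lay mostly above 0, its lower end being -0.05 for Ctgf and -0.06 for Cyr61.

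Ankrd1 (chromosome 19, 36111961 to 36120099, minus strand), an ankyrin repeat protein of striated muscle and of stressed cells, was barely expressed. It had 33, 17 and 9 reads in WT 1, 2 and 3 and 12, 24 and 34 reads in cKO 1, 2 and 3, or 0.714, 0.425 and 0.227 CPM and 0.362, 0.935 and 1.07 CPM. The groups overlapped, with cKO 1 below 2 of the 3 WT libraries. The 95% interval of the log2 fold change, from -0.51 to 2.05 around 0.77 ± 0.57, covers both directions (edgeR adjusted p = 0.462). A change in Ankrd1 was not detectable with these counts and this spread, the CV over libraries being 53.8% in WT and 47.6% in cKO.

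Igfbp3 (chromosome 11, 7206086 to 7213923, minus strand), a carrier of insulin-like growth factors in the extracellular space, was the member that rose. It had 137.0, 138.3 and 144.5 CPM in WT and 225.4, 182.8 and 215.2 CPM in cKO, so that the WT libraries lay close together and all cKO libraries above them. The 1.49-fold rise (log2 0.57 ± 0.10, edgeR adjusted p = 0.00737) was kept in 5 of the 6 leave-one-out fits. Without cKO 3 the log2 fold change was 0.54 and just missed the threshold (edgeR adjusted p = 0.0502).

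Tgfb2 (chromosome 1, 186622792 to 186705989, minus strand) encodes a TGF-beta ligand. Its CPM was 9.73, 7.95 and 10.4 in WT and 9.62, 13.5 and 15.6 in cKO, where cKO 1 sat among the WT libraries and the other two above them. The log2 fold change of 0.46 ± 0.20 (95% interval 0.01 to 0.91) was not called (edgeR adjusted p = 0.194). Axl (chromosome 7, 25757273 to 25788705, minus strand) is a receptor tyrosine kinase for the ligand Gas6. It stood at 148.0, 141.2 and 158.1 CPM in WT and at 186.6, 174.1 and 181.3 CPM in cKO, with no overlap. The difference (log2 0.28 ± 0.08) was not called (edgeR adjusted p = 0.0678). It was called with total counts only (log2 0.40, edgeR adjusted p = 0.014) and by DESeq2 (log2 0.27, DESeq2 adjusted p = 0.0327).

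The members called lower were Ajuba and Arhgef17. Ajuba (chromosome 14, 54567472 to 54577558, minus strand) is a LIM-domain adaptor at cell junctions that binds and restrains the LATS kinases. It went from 35.1, 42.1 and 38.5 CPM in WT to 26.3, 28.0 and 30.5 CPM in cKO, with every cKO library below every WT library. The fall was 1.36-fold (log2 -0.45 ± 0.11, edgeR adjusted p = 0.0291). Leaving out cKO 1, cKO 2, cKO 3 or WT 2 ended the call (edgeR adjusted p = 0.0789, 0.0889, 0.0639 and 0.123) and so did total counts only (edgeR adjusted p = 0.0971), while its log2 fold change stayed between -0.54 and -0.38 over the leave-one-out fits.

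Arhgef17 (chromosome 7, 100869752 to 100932107, minus strand), a guanine nucleotide exchange factor, went from 159.1, 139.0 and 135.5 CPM in WT to 79.4, 117.4 and 100.5 CPM in cKO. The cKO libraries were spread widely, with cKO 1 the lowest, yet all lay below the WT libraries. The fall was 1.46-fold (log2 -0.55 ± 0.14, edgeR adjusted p = 0.0386). The call, but not the direction, was lost without cKO 1, cKO 3, WT 1 or WT 2 (edgeR adjusted p = 0.0644, 0.122, 0.0845 and 0.0816) and with total counts only (edgeR adjusted p = 0.0968). The log2 fold change lay between -0.69 and -0.41 over the leave-one-out fits and was -0.42 with total counts only.

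Ptpn14 (chromosome 1, 189728268 to 189876695, plus strand), a FERM-domain phosphatase that binds YAP, shared the low value in cKO 1. It had 75.1, 69.6 and 67.7 CPM in WT and 49.1, 71.8 and 62.8 CPM in cKO, so cKO 2 lay within the WT range. The log2 fold change of -0.21 ± 0.13 (95% interval -0.51 to 0.09) was not called (edgeR adjusted p = 0.382), and it was -0.08 without cKO 1. Myof (chromosome 19, 37899036 to 38043577, minus strand), the membrane repair and fusion protein myoferlin, had 14.7, 11.5 and 18.2 CPM in WT and 18.2, 16.0 and 19.4 CPM in cKO. The groups overlapped through WT 3 (log2 0.27 ± 0.17, 95% interval -0.12 to 0.67, edgeR adjusted p = 0.391).

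Libraries did not rank alike from gene to gene. Among cKO libraries, cKO 1 was highest for Ctgf, Cyr61, Axl and Igfbp3 and lowest for Ankrd1, Ajuba, Arhgef17, Tgfb2 and Ptpn14. WT 3 was the highest WT library for Ctgf, Axl, Igfbp3, Tgfb2 and Myof and the lowest for Ankrd1, Arhgef17 and Ptpn14. Levels between genes were compared as CPM per kilobase of merged GENCODE exons. In WT the order was Igfbp3 (44.7), Axl (29.6), Cyr61 (18.4), Arhgef17 (13.4), Ajuba (10.6), Ptpn14 (5.28), Ctgf (5.20), Tgfb2 (1.62), Myof (1.18) and Ankrd1 (0.158). The WT libraries of Ptpn14 and Ctgf overlapped, as did those of Tgfb2 and Myof, and the other neighbours did not. Ctgf thus had 3.95 to 7.19 CPM per kilobase in WT, below the 17.4 to 19.2 of Cyr61.

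**Figure D2:**
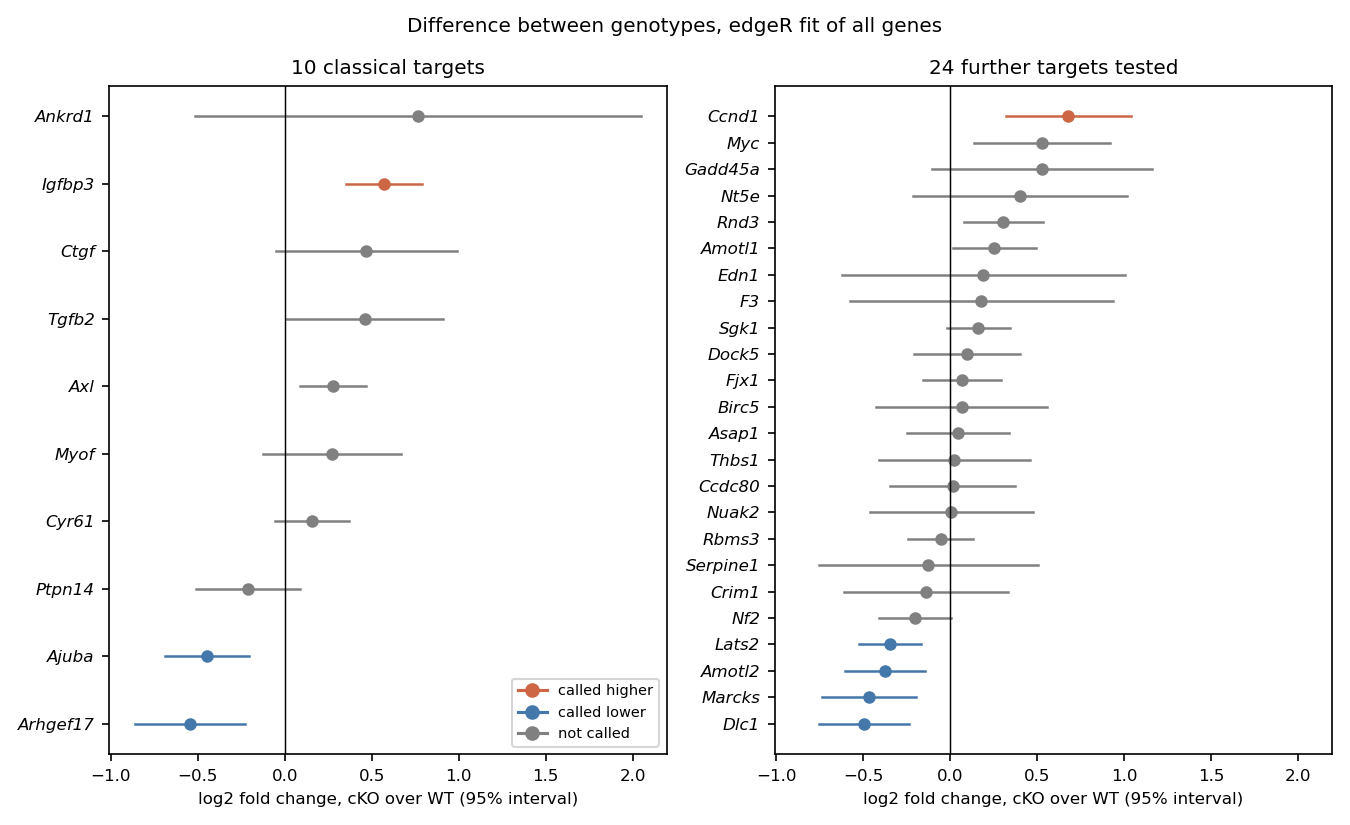
Log2 fold change (cKO over WT) with 95% interval from the edgeR fit of all genes, for the 10 classical targets and for 24 further targets; colour marks the call. Igfbp3 (0.57) and Ccnd1 (0.68) are the only genes called higher in their panels, and Arhgef17 (-0.55) and Dlc1 (-0.49) are the lowest.

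Among other known YAP/TAZ targets few genes were called, and only 1 of them was higher, close to the share over all genes. Of 27 listed, 24 could be tested (Foxf2, Inhba and Areg were too low). Of these, 4 fell, 1 rose and 19 did not pass, beside 6.17% lower and 4.77% higher over all genes. The median log2 fold change of the 24 was 0.06. Lats2, a Hippo kinase that restrains YAP, went from 78.5, 84.9 and 83.3 CPM in WT to 63.3, 66.9 and 63.7 CPM in cKO (log2 -0.35 ± 0.08, edgeR adjusted p = 0.0225). Amotl2, a junctional YAP-binding protein, fell 1.30-fold (edgeR adjusted p = 0.0473), Dlc1, a GTPase-activating protein, 1.41-fold (edgeR adjusted p = 0.0249), and Marcks, an actin-binding membrane protein, 1.38-fold (edgeR adjusted p = 0.0389). Ccnd1, the G1 cyclin D1, rose from 861.2, 895.1 and 577.4 CPM to 1302, 1203 and 1234 CPM (log2 0.68 ± 0.16, edgeR adjusted p = 0.0261). Its WT 3 value was far below the other WT libraries, and its call was lost without any 1 of cKO 1, cKO 2, cKO 3 or WT 1.

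The next genes by p were Myc (log2 0.53 ± 0.17), Rnd3 (0.31 ± 0.10) and Amotl1 (0.26 ± 0.11), none called by edgeR, although DESeq2 called Myc and total counts only gave a call for Rnd3. The 4 lower calls went to 1 without cKO 1, to 1 without cKO 2 and to 3 without WT 1. In fits lacking cKO 3 or WT 2, and with total counts only, 0 were left. With upper-quartile factors 2 of the 4 counted as lower. All of these genes stayed on the same side of 0 in every alternative that was run.

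The members were then set beside genes of their own families and pathways, 60 tested relatives in all. Of these, 5 rose, 4 fell and 51 were not called, beside 4.77% higher and 6.17% lower over all genes. One of the 4, Lats2, is also counted among the further targets above. In the CCN family, Nov (Ccn3) fell from 168.3, 179.3 and 257.0 CPM to 97.1, 107.7 and 109.0 CPM (log2 -0.95 ± 0.16, edgeR adjusted p = 0.00602). Wisp1 (Ccn4) fell from 66.2, 75.6 and 71.9 CPM to 44.1, 42.1 and 43.7 CPM (log2 -0.72 ± 0.08, edgeR adjusted p = 0.00139). Both were lower in every cKO library than in any WT library and were called in each of the 6 leave-one-out fits, but not with the muscle covariate described below (edgeR adjusted p = 0.0824 and 0.209), whereas Ctgf and Cyr61 had log2 fold changes above 0 in every leave-one-out fit. Per kilobase, Nov was the most abundant of the family in WT (70.2 CPM per kilobase) and also in cKO (36.5), ahead of Cyr61 (18.4 and 20.5), Wisp1 (12.8 and 7.78) and Ctgf (5.20 and 7.19). Wisp2 and Wisp3 were under 1 CPM per kilobase.

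**Figure D3:**
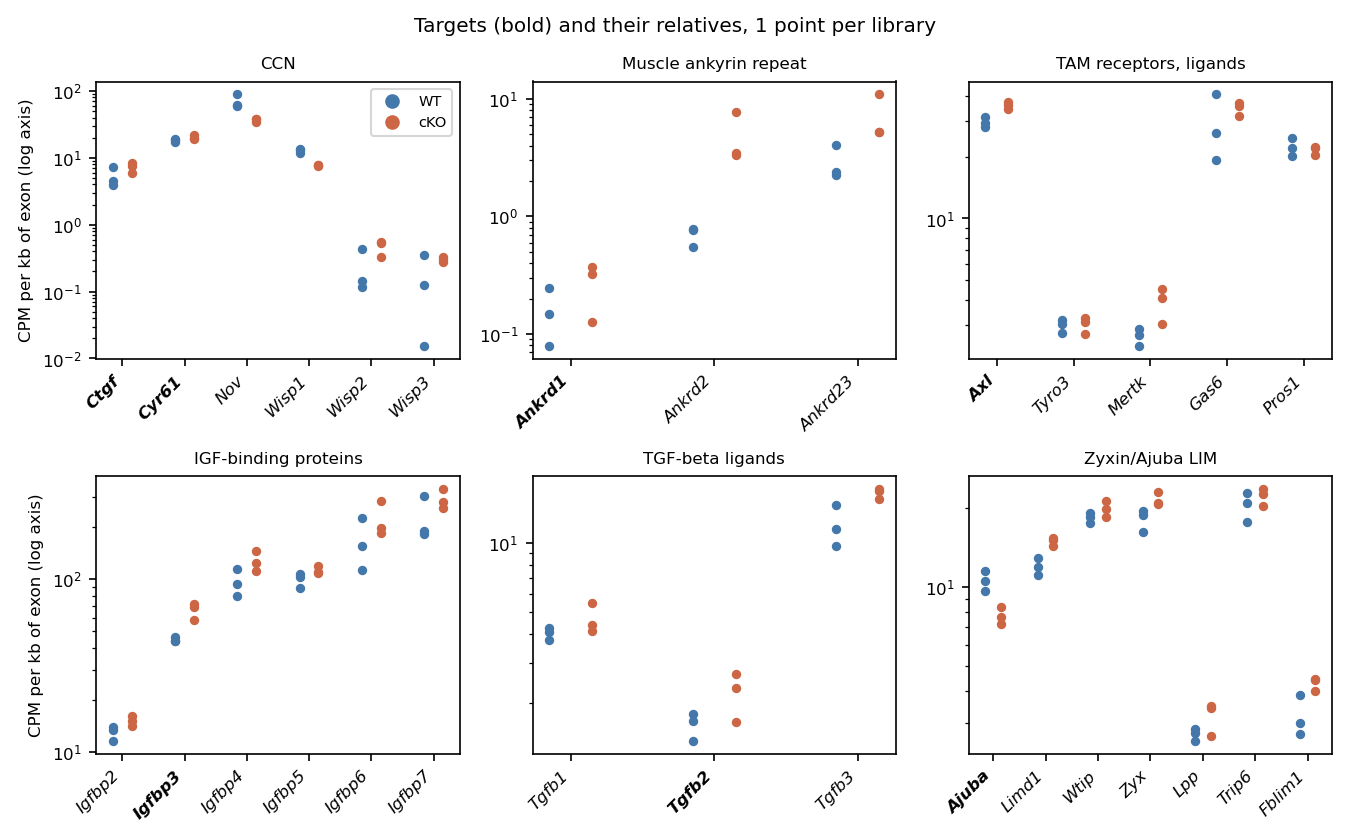
CPM per kilobase of exon (log axes, a separate range for each panel) of members (bold) and their relatives, 1 point per library. In the CCN panel Nov and Wisp1 are lower in cKO without overlap while Ctgf overlaps; in the zyxin/Ajuba panel only Ajuba has cKO points below all its WT points.

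Among the LIM adaptors related to Ajuba, 1 of 6 tested relatives was called (10.9% over all genes), and in the opposite direction. Limd1, which like Ajuba binds LATS kinases, had 77.5, 66.7 and 71.6 CPM in WT and 92.7, 86.4 and 91.2 CPM in cKO (log2 0.33 ± 0.09, edgeR adjusted p = 0.0437), whose call was lost in each of the 6 leave-one-out fits, at log2 0.27 to 0.35 (lowest edgeR adjusted p there = 0.0793). In the insulin-like growth factor axis, Igf2r, which clears Igf2, rose from 72.2 to 83.3 CPM in WT to 97.1 to 108.1 CPM in cKO (log2 0.39 ± 0.09, edgeR adjusted p = 0.0224), a call lost without cKO 3, WT 1 or WT 2. Igfbp2, Igfbp4, Igfbp5, Igfbp6 and Igfbp7 were not called, with log2 fold changes of 0.17 to 0.44 beside 0.57 for Igfbp3. Igfbp3 was below all of them except Igfbp2 per kilobase in WT.

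None of the 11 other TGF-beta ligands, receptors, latent-binding proteins and inhibitors was called by edgeR, and 5 had an unadjusted p under 0.05. DESeq2 called 2 of them, with 24.6% and 15.2% of all genes as the backgrounds. Tgfb3 was not called at log2 0.47 ± 0.14 (edgeR adjusted p = 0.0719), beside 0.46 for Tgfb2. Of the 4 genes set beside Axl, the ligands Gas6 and Pros1 and the related receptors Tyro3 and Mertk, 0 were called by edgeR, 1 had an unadjusted p under 0.05 and DESeq2 called 1. Mertk was higher in every cKO library (10.3 to 12.4 CPM in WT, 13.2 to 19.6 CPM in cKO, edgeR adjusted p = 0.0704).

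Dysf, which encodes the membrane repair ferlin dysferlin, fell from 56.0, 46.5 and 62.8 CPM to 31.0, 40.1 and 34.7 CPM (log2 -0.65 ± 0.14, edgeR adjusted p = 0.0168), a call lost without cKO 1 or cKO 3. Beside Ptpn14, the phosphatase Ptpn3 rose from 6.30 to 7.32 CPM in WT to 9.22 to 13.01 CPM in cKO (log2 0.73 ± 0.17, edgeR adjusted p = 0.0265), a call lost without cKO 2, cKO 3, WT 1 or WT 2. Its closest relative Ptpn21 had a log2 fold change of -0.01 ± 0.11.

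Skeletal muscle transcripts moved with the groups and are given here beside Ankrd1 and its family. All 11 muscle markers were higher in cKO without overlap, 9 of them called, and their summed level was 436.5 to 1685 CPM in WT and 4428 to 9753 CPM in cKO. The muscle ankyrin repeat genes Ankrd2 and Ankrd23 rose. Ankrd2 went from 0.865, 0.625 and 0.882 CPM to 3.95, 8.76 and 3.83 CPM (log2 2.79 ± 0.39, edgeR adjusted p = 0.00308) and Ankrd23 from 10.99, 6.45 and 6.07 CPM to 14.2, 29.7 and 14.0 CPM (log2 1.29 ± 0.34, edgeR adjusted p = 0.0398). For both, cKO 2 was the highest library, as it was for the summed muscle markers. The Ankrd23 call was lost without cKO 2, cKO 3, WT 2 or WT 3, and with the replicate block. Neither gene was called with the muscle covariate described below. There the log2 fold change was 1.6 for Ankrd2 (edgeR adjusted p = 0.414) and 0.35 for Ankrd23 (edgeR adjusted p = 0.89).

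**Figure D4:**
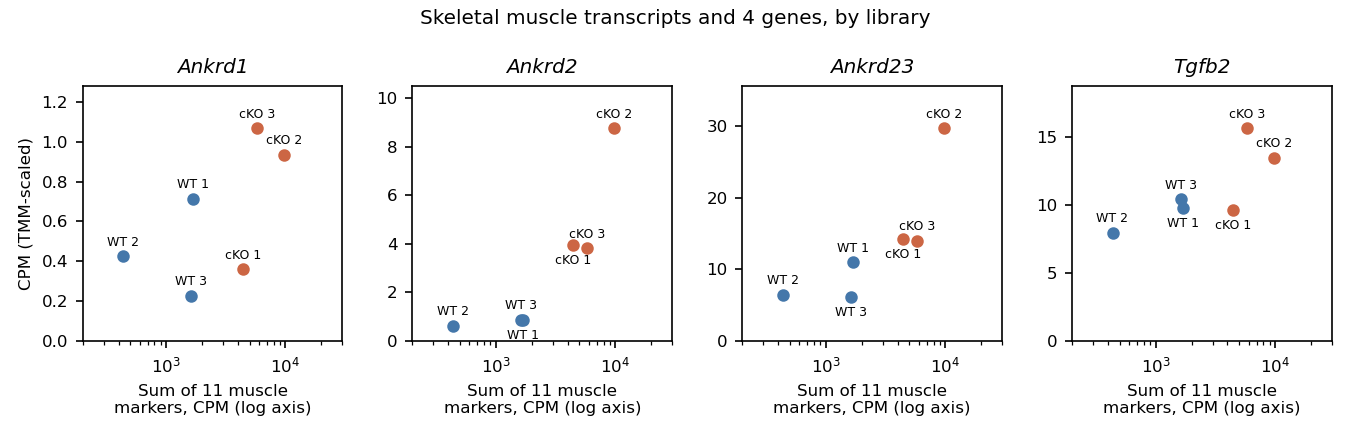
CPM of Ankrd1, Ankrd2, Ankrd23 and Tgfb2 (linear axes from 0) against the summed CPM of 11 skeletal muscle markers (log axis), 1 labelled point per library. cKO 2 has the highest muscle sum (9753 CPM), Ankrd2 (8.76 CPM) and Ankrd23 (29.7 CPM), while the Ankrd1 points of the groups overlap.

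With the mean level of the muscle markers as a covariate, 0 of the 10 targets were called by edgeR, 2 (Igfbp3 and Arhgef17) had an unadjusted p under 0.05, and the log2 fold changes of Ankrd1, Tgfb2 and Myof were 0.24, -0.02 and -0.12. In that fit the log2 fold change was 0.68 for Igfbp3 (edgeR adjusted p = 0.2), -0.28 for Ajuba (edgeR adjusted p = 0.732) and -0.85 for Arhgef17 (edgeR adjusted p = 0.222), and 172 genes in all were called, against 1618 without it. The standard errors grew as well, from 0.10 to 0.19 for Igfbp3. The covariate (mean log2 CPM) did not overlap between the groups, at 4.098 to 6.327 in WT and 7.614 to 8.896 in cKO. Muscle level and genotype therefore cannot be told apart in that fit, and the lost calls do not measure the part of muscle RNA. That part of the members' values was not tested. Among markers of other cells that could express these targets, 0 of 6 fibroblast, 0 of 6 endothelial, 0 of 6 mural, 0 of 6 macrophage and 0 of 5 adipocyte genes were called by edgeR; of these 29 genes, 6 had an unadjusted p under 0.05 and DESeq2 called 0, beside 24.6% and 15.2% of all genes. Their summed levels overlapped between the groups through WT 3 alone, while WT 1 and WT 2 lay below every cKO library in all 5 lists. The sums in WT 1, WT 2 and WT 3 were 91.4, 88.2 and 406.0 CPM for adipocytes, beside 301.6 to 417.2 CPM in cKO, and 207.3, 198.4 and 340.3 CPM for mural cells, beside 297.8 to 352.1 CPM. They were 285.1, 267.3 and 418.7 CPM for endothelial cells, beside 377.1 to 430.7 CPM, and 23810, 22330 and 30070 CPM for fibroblasts, beside 25630 to 27450 CPM. Ctgf and Myof had the same arrangement, with WT 1 and WT 2 below every cKO library. In each of those 5 lists, and for the 3 perineurial genes (1 called lower), WT 3 had the highest sum among WT libraries. It was also the highest WT library for Ctgf, Axl, Igfbp3, Tgfb2 and Myof, and the lowest for Ankrd1, Arhgef17 and Ptpn14. Mast cell transcripts were higher (2 of 4 called, 68.3 to 90.4 against 99.3 to 218.0 CPM). Among Schwann cell genes, Egr2, a transcription factor of myelination, was called lower (log2 -0.53 ± 0.09, edgeR adjusted p = 0.00627). The lineage factor Sox10 was not called (506.6 ± 89.5 and 451.6 ± 36.3 CPM). How much each cell type contributed to the values of the targets was not tested.

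**Figure D5:**
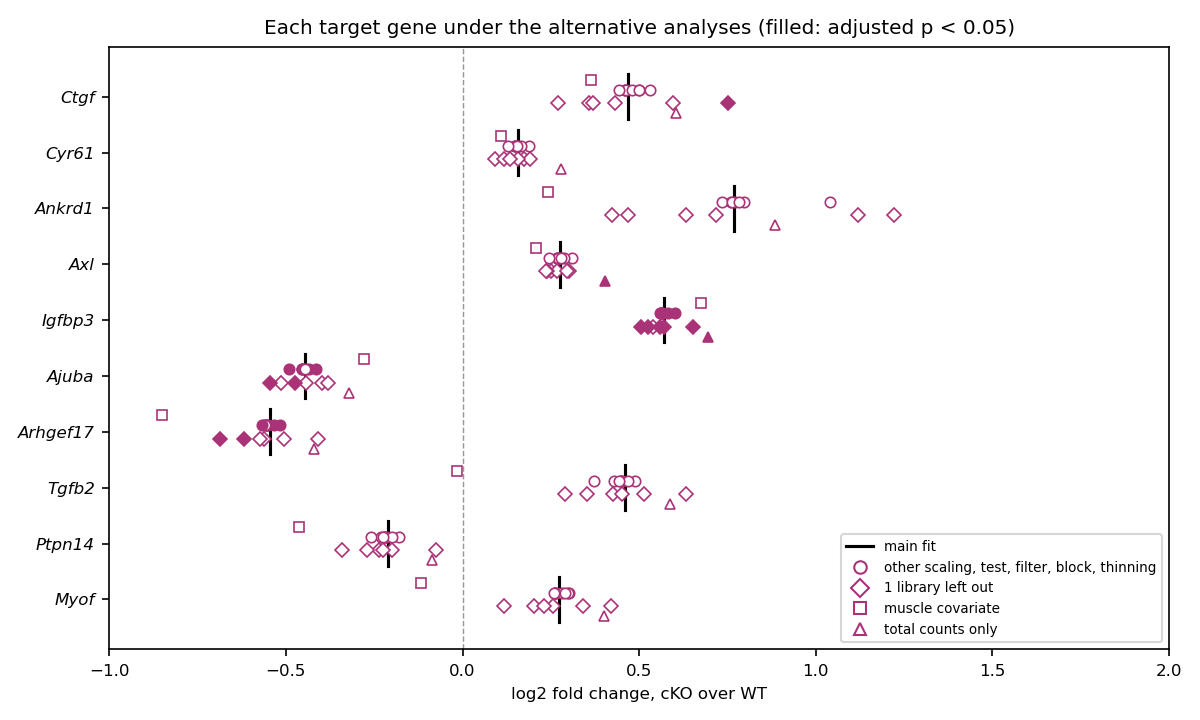
Log2 fold change (cKO over WT) of each target under the main fit (black line) and 16 alternatives; filled symbols passed the adjusted p threshold of 0.05. The sign changed only for Tgfb2 and Myof, under the muscle covariate, and Igfbp3 kept its call in 14 of the 16 alternatives, Ajuba and Arhgef17 in 9 each.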

How the data were processed

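The authors deposited 1 file of raw read counts per gene symbol for each of 6 mouse sciatic nerve libraries. Per the submitters' processing notes, reads were aligned with TopHat2 2.0.13 and counted with HTSeq on mm10; annotation and strand setting were not given in the sources used here. Library preparation used Trizol, RNeasy columns and a TruSeq RNA kit, per the labels. HTSeq's closing lines (reads in no gene, 12.07% to 14.26% of a file, and ambiguous reads, 1.635% to 2.818%) were left out. Libraries of 1 group differed by at least 13.45 in chi-square per degree of freedom, more than counting noise, so no file was a copy of another. This does not show that they are biological replicates, and p-values measure only the spread between these libraries. The design text speaks of separate mice, but each library holds transcripts of both sexes. If nerves were pooled, the spread is that between pools.

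Genes were filtered with filterByExpr (minimum count 10), scaled by TMM factors and tested with edgeR 4.0.16 (R 4.3.3), using the quasi-likelihood F test on all 6 libraries with group as the only term. The p-values (two-sided) were Benjamini-Hochberg adjusted over the 14789 genes tested, and a gene was called at an adjusted p under 0.05. The SE of a log2 fold change is its size over the root of F, and 95% intervals use the test's degrees of freedom and are not adjusted. Taking 3 counts as the limit, a gene with 0 counts could have up to 0.0649 to 0.117 CPM, for counting error only. The pipeline was tested on simulated counts, with differences between groups set only at randomly drawn genes. That test does not bear on muscle RNA or on the mix of cells. Positions and exon lengths came from GENCODE M21 (GRCm38, as mm10), with CCN genes matched through RefSeq synonyms, and promoters from RefSeq (GRCm38.p6). Alternatives used DESeq2 1.42.0 and limma-voom (limma 3.58.1), other factors, filters, a muscle covariate and left-out libraries.

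The members and lists were chosen with earlier results of these data known. Named genes are all members, Yap1 and Wwtr1, called further targets and the next 3 by p, called relatives, relatives needed for the order of levels, and up to 3 genes of each marker list. Gm15270, Xist, Ddx3y, Mertk, Tgfb3, Ptpn21, Gas6, Pros1, Tyro3, Egr2, Foxf2, Inhba and Areg were named after their values were seen. Some listed genes are not reported here.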

Additional observations from a re-analysis of the deposited data

How the results depend on the processing

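Over 28 named genes and their alternatives, 354 of 447 log2 fold changes kept direction and call, 86 lost a call, 5 gained one and 2 changed sign: Tgfb2 (-0.016) and Myof (-0.12), both with the muscle covariate. The cause was not tested. All 86 losses fall among genes called in the main fit. The 447 also take in genes not called there, which could not lose a call. With total counts only, 1273 genes were called higher and 606 lower, among them 2 members higher and 0 lower, 2 further targets higher and 0 lower, and 15 relatives higher. DESeq2 called 2 members, 2 further targets and 9 relatives higher. Upper-quartile factors left 2 further targets lower. With the muscle covariate, which did not overlap between the groups, 31 genes were higher and 141 lower. In that fit 0 members and 0 further targets were called in either direction, 0 relatives higher and 1 lower. With the replicate block 461 genes were higher, 0 members and 1 further target lower and 2 relatives higher. The correlations of deviations in same-numbered libraries were -0.207, -0.122 and 0.072, so the numbers were not taken as pairs. Libraries did not all correlate best with their own number, the highest value being 0.222 for cKO 2 and WT 1. Leaving out 1 library gave 276 to 1075 genes higher and 459 to 1120 lower, 0 to 2 members higher and 0 to 2 lower, 0 to 2 further targets higher and 0 to 4 lower, and 1 to 10 relatives higher and 2 to 5 lower. With 50 counts required in 3 libraries Ankrd1 was not tested. Ankrd1 had 9 to 34 reads per library.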
